A study of Mus musculus with 12 samples.

Results

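The genes described here are the transcription factor genes Sox17 and Sox18 and 8 genes that mark endothelial cells, the cells that line blood vessels: Rgcc, Ptprb, Esam, Cdh5, Tie1, Tek, Kdr and Aplnr. They were taken by gene symbol and are 10 of 12393 genes with a probe set of a single symbol, carried by 14 of 22626 probe sets. All 10 genes and 13 of the 14 probe sets passed the filter on low signals. The genes were chosen by their measured differences between these MI and sham groups, some because they were higher and some because they were lower. Their differences between groups are therefore descriptions, given with standard errors and without p-values, and a count of them that passed the threshold is not evidence about them as a set.

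Heart RNA was measured on 12 Affymetrix arrays. The mice were of the inbred strain C57Bl/6, and 4 groups of 3 biological replicates were formed, namely wake MI, wake sham, sleep MI and sleep sham. MI is myocardial infarction, induced by ligating the left anterior descending artery, and sham mice had surgery without it. Wake surgery fell between ZT13 and ZT15 with collection at ZT23, and sleep surgery between ZT1 and ZT3 with collection at ZT11, 8 hours after surgery in both cases (ZT counts hours from lights on). A difference between wake and sleep groups thus belongs to the time of surgery and the time of collection alike. MI samples are labelled as infarcted myocardium; which region of a sham heart was used is not stated in the labels. All 18 cardiomyocyte markers on the array passed the filter, with a summed signal of 104920 to 144710 per array. This bears out heart muscle as the tissue, but not the infarct or the region sampled.

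Endothelial cells form the inner wall of every vessel and of the heart chambers, and in heart muscle they are mostly those of capillaries. Their identity is held by transcription factors of the SOXF family (Sox7, Sox17, Sox18) and the ETS family, acting with signals from the VEGF, angiopoietin and apelin systems. Kdr is the main signalling receptor for VEGF-A, Tek is the angiopoietin receptor Tie2, Tie1 is its partner without a clear ligand of its own, and Ptprb is a phosphatase that restrains Tek and cadherin signalling. Cdh5 (VE-cadherin) and Esam are adhesion molecules of endothelial junctions. Aplnr is the receptor for apelin, and Rgcc codes for a regulator of the cell cycle that responds to complement and hypoxia.

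RefSeq promoter sequences (build GRCm38.p6) were at hand for 4 of the 10 genes, and the 250 bases before the start of each are shown because ETS and SOX factors are the known regulators of such genes. Capitals mark the ETS core GGAA and the SOX words AACAAT and ACAAAG, searched on both strands, so that TTCC and ATTGTT are matches too; in Tek an ATTGTT and a TTCC overlap. Rgcc lies at chr14:79301636-79301885 on the minus strand, Kdr at chr5:75978456-75978705 on the minus strand, Tie1 at chr4:118489850-118490099 on the minus strand and Tek at chr4:94739039-94739288 on the plus strand.
Rgcc: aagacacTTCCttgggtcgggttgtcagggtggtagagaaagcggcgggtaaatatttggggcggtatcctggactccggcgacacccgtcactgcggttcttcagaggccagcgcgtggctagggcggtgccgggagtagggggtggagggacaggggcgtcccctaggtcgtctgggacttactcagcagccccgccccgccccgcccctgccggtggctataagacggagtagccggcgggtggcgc
Kdr: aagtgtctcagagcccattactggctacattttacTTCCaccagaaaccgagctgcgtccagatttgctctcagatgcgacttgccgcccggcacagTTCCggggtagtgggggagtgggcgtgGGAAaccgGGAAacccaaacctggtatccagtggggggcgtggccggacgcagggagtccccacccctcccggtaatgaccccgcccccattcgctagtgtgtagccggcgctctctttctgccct
Tie1: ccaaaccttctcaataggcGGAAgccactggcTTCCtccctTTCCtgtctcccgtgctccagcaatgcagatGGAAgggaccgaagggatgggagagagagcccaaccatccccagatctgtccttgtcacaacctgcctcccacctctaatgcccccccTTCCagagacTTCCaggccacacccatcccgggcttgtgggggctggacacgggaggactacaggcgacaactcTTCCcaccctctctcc
Tek: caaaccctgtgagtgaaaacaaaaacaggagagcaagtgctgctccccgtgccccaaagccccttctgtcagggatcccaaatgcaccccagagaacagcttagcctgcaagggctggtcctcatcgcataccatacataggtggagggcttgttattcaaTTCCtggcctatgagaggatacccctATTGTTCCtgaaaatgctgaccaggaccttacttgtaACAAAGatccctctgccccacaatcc
GGAA was found 7 times in the Tie1 window, 4 times in Kdr, 2 times in Tek and 1 time in Rgcc, against a median of 3 over 32851 promoter windows of the same length. At least 1 match was present in 93.4% of all windows, and 7 or more in 3.82%. The SOX words were found 2 times in Tek and not in the other 3 windows, against 24.0% of all windows with a match. A match describes the letters only and shows no binding.

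The deposited values are MAS5 signals on a linear scale, and each sham signal below is the background for the MI signals of the same time. Log2 differences are of log2(signal + 16). A gene is said to have passed where limma, fitted to 8111 genes on all 12 arrays, gave a Benjamini-Hochberg adjusted p below 0.05 over those genes. Over both times 6 of the 10 genes were higher after MI by this criterion (Sox17, Rgcc, Ptprb, Esam, Cdh5 and Kdr) and 1 was lower (Sox18), where 22.2% of all genes tested were called, 8.57% higher and 13.6% lower. In wake hearts 5 were higher (the same without Kdr) and 2 lower (Sox18 and Aplnr), against 7.8% and 10.6% of all genes. In sleep hearts 0 of 10 passed, against 2.68% of all genes (1.69% higher and 0.986% lower), and 3 (Cdh5, Kdr and Ptprb) had an unadjusted p below 0.05 in limma, as did 17.2% of all genes. Tie1 and Tek passed in none of these comparisons. In bulk heart RNA, fewer endothelial cells and less RNA per cell cannot be told apart.

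**Figure D1:**
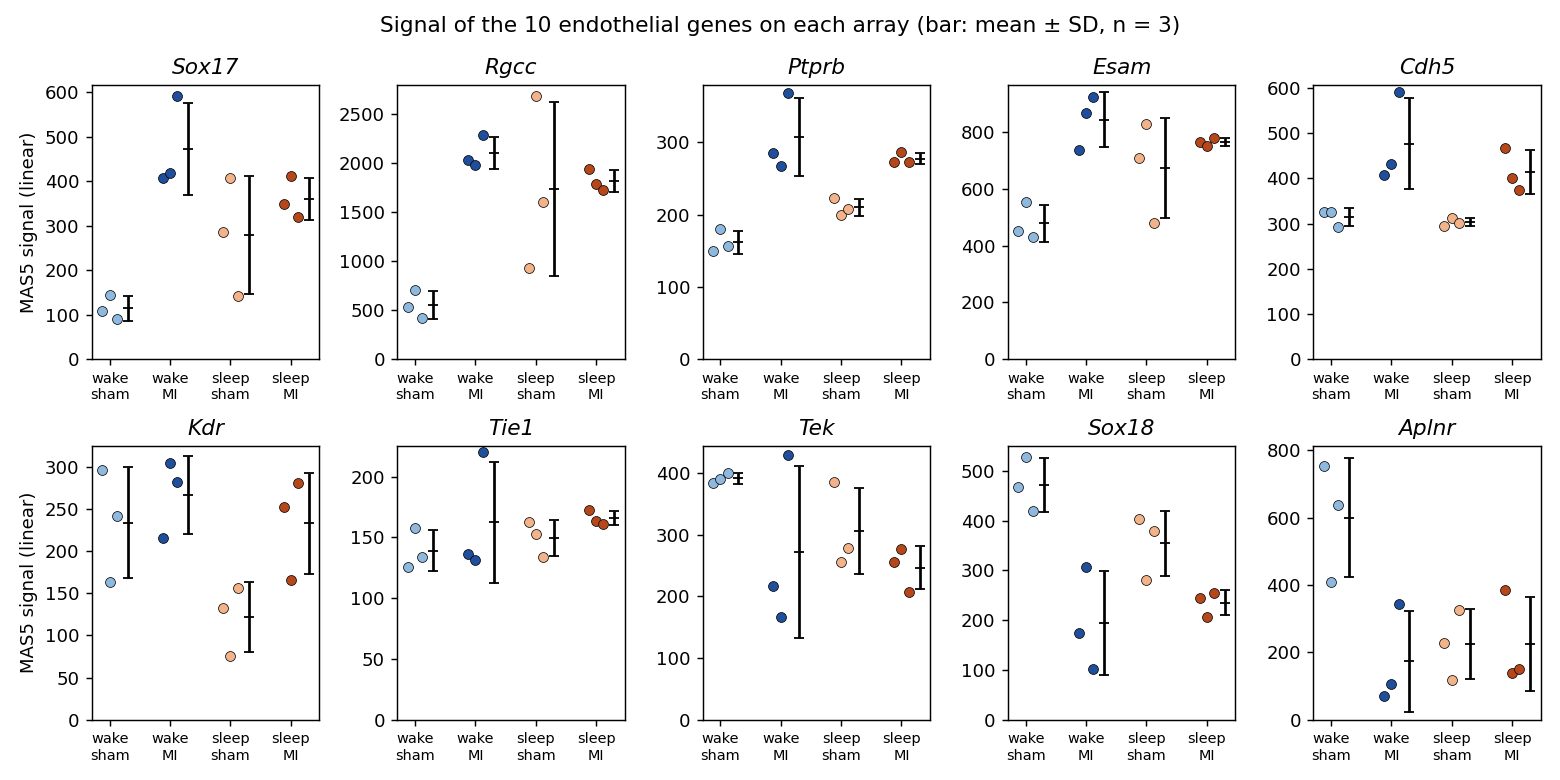
MAS5 signal (linear scale, from 0) of each of the 10 genes on each of the 12 arrays, by group, with the mean ± SD of 3 arrays as a bar to the right of the points. In Sox17, Rgcc, Ptprb, Esam and Cdh5 the wake MI arrays all lie above the wake sham arrays, and in Sox18 and Aplnr they all lie below them.

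Sox17 codes for a factor of arterial and developing endothelium. Its brighter probe set read 107, 145 and 89.3 in wake sham and 407, 419 and 591 in wake MI hearts. In sleep sham hearts it read 286, 408 and 142, and in sleep MI hearts 349, 411 and 319. Every wake MI array thus lay above every wake sham array, whereas the sleep groups overlapped because sleep sham replicate 2 stood as high as the MI hearts. The log2 difference between MI and sham was 1.91 (SE 0.28, 3.77-fold) in wake and 0.46 (SE 0.28) in sleep hearts. The dimmer probe set of Sox17 read 44.0, 57.1 and 44.1 in wake sham, 225, 192 and 280 in wake MI, 104, 109 and 45.2 in sleep sham and 143, 166 and 134 in sleep MI hearts. It gave 1.94 (SE 0.23) in wake and 0.75 (SE 0.23) in sleep hearts, and here the MI arrays lay above the sham arrays at both times. The brighter probe set carries the suffix by which Affymetrix marks probes that may bind other transcripts.

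Rgcc differed as much as Sox17 in wake hearts and little in sleep hearts. The brighter of its probe sets read 535, 703 and 417 in wake sham and 2035, 1978 and 2290 in wake MI hearts. In sleep hearts the values were 926, 2683 and 1604 after sham surgery and 1936, 1786 and 1725 after MI. The wake sham hearts were therefore the low group, and the other 3 groups overlapped, except that each wake MI array lay above each sleep MI array. The MI difference was 1.93 (SE 0.27, 3.80-fold) in wake and 0.19 (SE 0.27) in sleep hearts. The other probe set gave the same order, with group means of 419 ± 126, 1375 ± 179, 1229 ± 159 and 1351 ± 118 (SD, n = 3 each) in wake sham, wake MI, sleep sham and sleep MI hearts.

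Ptprb, the phosphatase that acts on Tek and Cdh5 complexes, and Cdh5, VE-cadherin itself, had all 6 MI arrays above all 6 sham arrays, as did the dimmer probe set of Sox17 but no other member by its brightest probe set, a separation found upward in 3% of all genes tested, downward in 4.83% and in 7.83% in all. Within wake hearts MI and sham arrays did not overlap for the 7 called members (35.2% of all genes, 13.7% upward), and within sleep hearts for Cdh5, Kdr and Ptprb upward and Sox18 downward (23.5% of all genes, 8.21% upward). Ptprb read 150, 180 and 156 in wake sham, 286, 268 and 368 in wake MI, 223, 199 and 207 in sleep sham and 273, 286 and 272 in sleep MI hearts. Its log2 difference was 0.85 (SE 0.12) in wake hearts, 0.38 (SE 0.12) in sleep hearts and 0.61 (SE 0.09) over both times. Cdh5 read 326, 325 and 292 in wake sham, 408, 431 and 592 in wake MI, 294, 312 and 302 in sleep sham and 469, 401 and 374 in sleep MI hearts. Its differences were alike at the 2 times, 0.56 (SE 0.13) in wake and 0.43 (SE 0.13) in sleep hearts. The second Cdh5 probe set had a mean signal of 16.5 over all arrays, lay below the filter and was not tested.

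Esam, a junctional adhesion molecule of endothelium and platelets, read 453, 553 and 431 in wake sham and 738, 869 and 927 in wake MI hearts, with no overlap (log2 0.80, SE 0.16). In sleep hearts it read 711, 830 and 481 after sham surgery and 766, 751 and 780 after MI, and these overlapped (log2 0.21, SE 0.16). Among sleep sham hearts replicate 2 was highest in Sox17, Rgcc and Esam. The lowest was replicate 3 in Sox17 and Esam and replicate 1 in Rgcc.

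Among the receptors, Kdr moved with a different order of groups. It read 296, 164 and 242 in wake sham, 215, 304 and 282 in wake MI, 133, 75.3 and 156 in sleep sham and 252, 166 and 281 in sleep MI hearts. Sleep sham was the low group, below every array of the other 3 groups. The MI difference was 0.87 (SE 0.25) in sleep hearts and 0.20 (SE 0.25) in wake hearts, and neither passed. Its call over both times (log2 0.54, SE 0.18) ended when any of 8 single arrays was left out (0.40 to 0.58), these being wake MI replicates 2 and 3, wake sham 2 and 3, sleep MI 1 and 3, and sleep sham 1 and 2.

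Tie1 and Tek code for a pair of related receptors. Tie1 read 126, 158 and 134 in wake sham, 136, 131 and 220 in wake MI, 162, 153 and 134 in sleep sham and 172, 164 and 161 in sleep MI hearts, and the groups overlapped except that every sleep MI array lay above every wake sham array. Its differences were 0.17 (SE 0.16) in wake and 0.14 (SE 0.16) in sleep hearts. Tek read 384, 390 and 401 in wake sham, against 218, 167 and 430 in wake MI hearts. In sleep hearts it read 386, 256 and 278 after sham surgery and 256, 277 and 208 after MI. Wake MI replicate 3 stood above all other arrays for both genes. Tek differed by -0.61 (SE 0.25) in wake and -0.28 (SE 0.25) in sleep hearts and did not pass. Without wake MI replicate 3 it passed, at -0.98 in wake hearts and -0.63 over both times.

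Sox18, a factor of vascular and lymphatic endothelium in the same family as Sox17, was lower after MI at both times. It read 467, 529 and 420 in wake sham and 175, 307 and 102 in wake MI hearts. In sleep hearts it read 404, 281 and 378 after sham surgery and 244, 206 and 254 after MI. MI and sham arrays did not overlap within either time, a separation downward found in 21.5% of all genes in wake and 15.3% in sleep hearts. The log2 difference was -1.33 (SE 0.26, 2.51-fold) in wake hearts, where it passed, and -0.55 (SE 0.26) in sleep hearts, where it did not.

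Aplnr, the apelin receptor, read 754, 407 and 637 in wake sham and 69.8, 106 and 344 in wake MI hearts. Sleep sham hearts gave 228, 118 and 327 and sleep MI hearts 384, 140 and 149. The wake sham group was high, and the other 3 groups overlapped widely. The MI difference was -1.94 (SE 0.49) in wake and -0.04 (SE 0.49) in sleep hearts. Over both times Aplnr did not pass (-0.99, SE 0.35), but it did when wake MI replicate 3 (-1.29), wake sham 2 (-1.11), sleep MI 1 (-1.21) or sleep sham 2 (-1.18) was left out. The wake call ended when replicate 1 (-1.51) or 2 (-1.77) of wake MI, or replicate 1 (-1.76) or 3 (-1.88) of wake sham, was left out. Its dimmer probe set gave -0.79 (SE 0.29) in wake hearts, with overlap between wake MI and wake sham arrays, and did not pass.

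**Figure D2:**
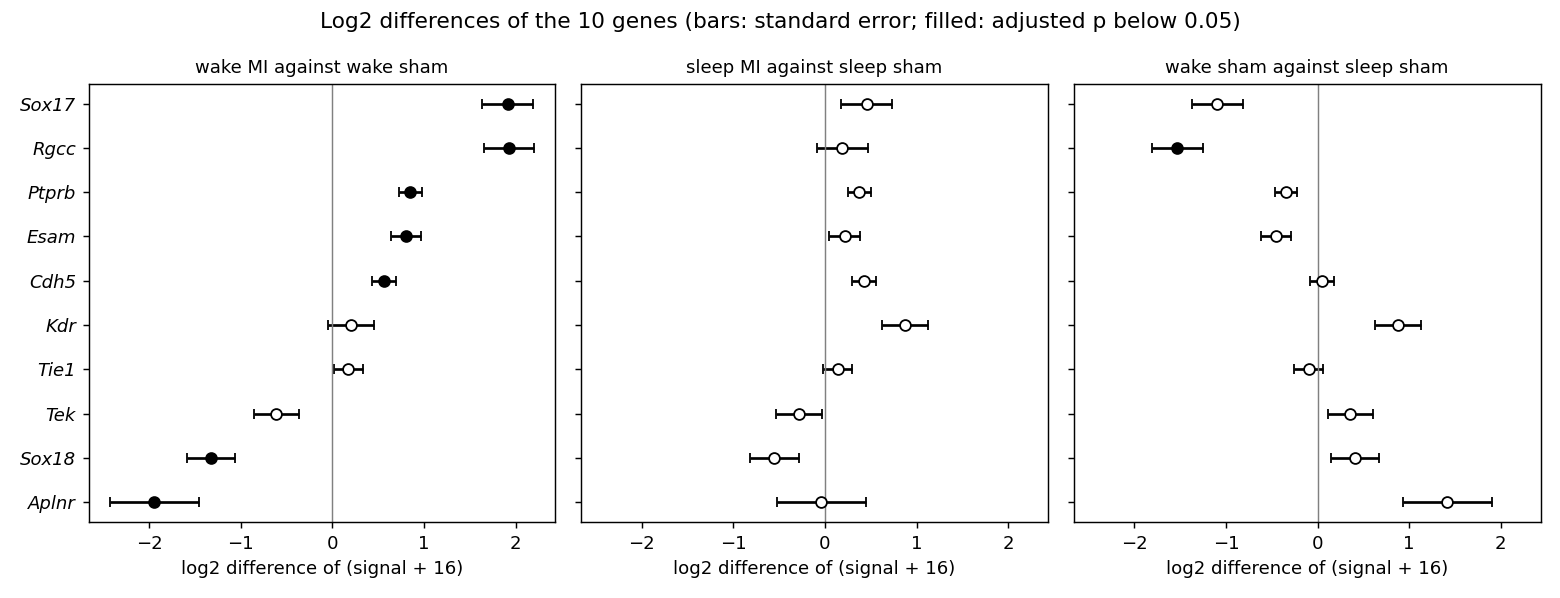
Log2 differences of the 10 genes with standard errors as bars, for wake MI against wake sham, sleep MI against sleep sham, and wake sham against sleep sham. Filled points passed an adjusted p of 0.05: 7 genes in the first panel, 0 in the second and 1, Rgcc, in the third.

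The SOXF genes Sox17 and Sox18 were set against each other on the same array. Both genes were chosen with their MI differences known, so a separation of MI from sham hearts is a description only. The log2 value of Sox17 minus that of Sox18, relative to its mean in sleep sham hearts, was -1.50 ± 0.15 in wake sham and 1.74 ± 0.98 in wake MI hearts (SD, n = 3 each). It was 1.01 ± 0.33 in sleep MI hearts, and in sleep sham hearts it spread widely, at -0.05, 0.94 and -0.89. The wake sham arrays, from -1.62 to -1.33, lay below all others, and sleep sham replicate 2 lay within the range of the sleep MI arrays (0.74 to 1.37). Sox7, the third member of the family, did not pass (log2 -0.34, SE 0.12, adjusted p = 0.0513 over both times, limma).

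**Figure D3:**
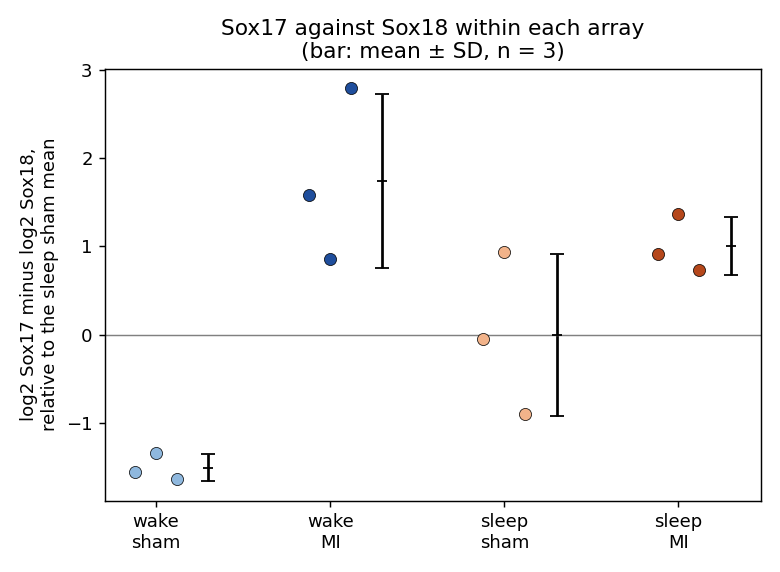
Log2 of Sox17 minus log2 of Sox18 on each of the 12 arrays, relative to the sleep sham mean, with the mean ± SD of 3 arrays as a bar. Wake sham arrays lie lowest (-1.62 to -1.33), and the MI arrays of both times lie above 0, as does sleep sham replicate 2 (0.94).

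The sham groups themselves differed by time, and these values use the same wake sham arrays as the wake MI comparison. Rgcc was lower in wake than in sleep sham hearts (log2 -1.53, SE 0.27) and was the 1 member of 10 that passed, where 1.52% of all genes did (0.419% higher and 1.1% lower in wake). That call ended without wake sham replicate 1 (-1.52) or 3 (-1.35), with the compared groups alone, with the beta-actin 3'/5' signal ratio as a covariate, and with an adjusted p below 0.01. Sox17 stood at -1.09 (SE 0.28), Esam at -0.45 (SE 0.16) and Ptprb at -0.35 (SE 0.12), all lower in wake sham hearts, and Aplnr at 1.42 (SE 0.49), Kdr at 0.88 (SE 0.25) and Sox18 at 0.41 (SE 0.26), all higher there. None of these 6 passed. Cdh5 (0.05, SE 0.13) and Tie1 (-0.10, SE 0.16) lay near 0. Groups of sham hearts did not overlap for 5 of the 10 genes (Rgcc and Ptprb lower in wake, Aplnr, Kdr and Sox18 higher), as in 20.1% of all genes (11.9% higher and 8.16% lower in wake). Without sleep sham replicate 3, Sox17 (-1.49) and Esam (-0.67) passed as well, and without wake sham replicate 2, Kdr (1.09).

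Between the MI groups of the 2 times the 10 genes differed by -0.49 (Aplnr) to 0.37 (Sox17) on the log2 scale. Their median absolute difference was 0.19, against 0.11 over all genes. Between these groups 0 of 10 passed in limma, where 0.074% of all genes did (0.037% in each direction). An unadjusted p below 0.05 was reached by 0 members, against 6.65% of all genes. By the brightest probe sets only Rgcc had groups without overlap there, higher in wake MI, as in 6.47% of all genes upward, 4.41% downward and 10.9% in all. The other Rgcc probe set overlapped (log2 0.02), and the dimmer one of Sox17 was higher in wake MI without overlap (log2 0.59). The MI effect in wake hearts minus that in sleep hearts was 1.74 (SE 0.39) for Rgcc, 1.46 (SE 0.39) for Sox17 and -1.90 (SE 0.69) for Aplnr. None passed, and neither did any of the 8111 genes in limma, although 5 members and 10.5% of all genes had an unadjusted p below 0.05. Rgcc passed without sleep sham replicate 1 (2.12) and Sox17 without sleep sham replicate 3 (1.85). The sign of the MI difference was the same at both times for 10 of 10 genes, which were chosen for these differences, and for 69.3% of all genes. In sleep hearts it was not settled for Aplnr, Rgcc and Esam, which reached 0.27, -0.19 and -0.0045 with a single sleep array left out. In wake hearts it was not settled for Tie1 and Kdr, which reached -0.045 and -0.017 with a single wake array left out. The size of the MI difference was larger in wake hearts for 9 of 10 and for 64.3% of all genes.

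The wider endothelial list held 35 other identity genes, of which 30 were on the array with a single symbol and 29 were tested. Over both times 12 rose, 4 fell and 13 did not pass (median log2 0.15, against -0.06 over all genes). By the same criterion 8.57% of all genes rose and 13.6% fell. Rasip1, needed for vessel lumens, rose from 56.9 ± 6.86 to 143 ± 9.45 in wake and from 90.9 ± 11.3 to 147 ± 14.2 in sleep hearts (SD, n = 3 each; log2 0.87, SE 0.09, adjusted p = 2.16e-05 over both times, limma). Tinagl1, a matrix protein of vessels, rose by log2 1.24 (SE 0.12, adjusted p = 2.30e-05), and Ctla2a, a protease inhibitor, by 0.78 (SE 0.11). Egfl7, a secreted vascular matrix protein (log2 -0.50, SE 0.09), Plvap, the diaphragm protein of fenestrated and endocardial endothelium (-0.77, SE 0.17), and Vwf, von Willebrand factor (-0.52, SE 0.13), fell. Pecam1 (log2 0.13, adjusted p = 0.424), Flt1 (-0.03, adjusted p = 0.872), Eng (-0.22, adjusted p = 0.157) and Emcn (-0.24, adjusted p = 0.170), broad endothelial markers named after their values were seen, did not pass. Other endothelial genes of the list, also named afterwards, had higher means in wake MI than in wake sham hearts. These were S1pr1 (387 against 163), Nos3 (382 against 232), Robo4 (175 against 96.0) and Thbd (788 against 477). In wake hearts 11 rose and 1 fell, where 7.8% and 10.6% of all genes did. The number that fell was 0 when replicate 2 of wake MI or replicate 3 of wake sham was left out, 2 without wake sham replicate 2 and 5 without wake MI replicate 3. In sleep hearts 3 rose and 2 fell (1.69% and 0.986% of all genes), and leaving out any single sleep array left 0 to 2 and 0 to 1. The list's summed signal lay between 18870 and 20130 in wake sham and between 23652 and 25920 in wake MI hearts. In sleep hearts it lay between 20527 and 24389 after sham surgery and between 22895 and 25173 after MI. The sum is carried by a few abundant genes such as Fabp4, Cd36 and Aqp1. Emcn and Eng had their highest group means in wake sham hearts.

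**Figure D4:**
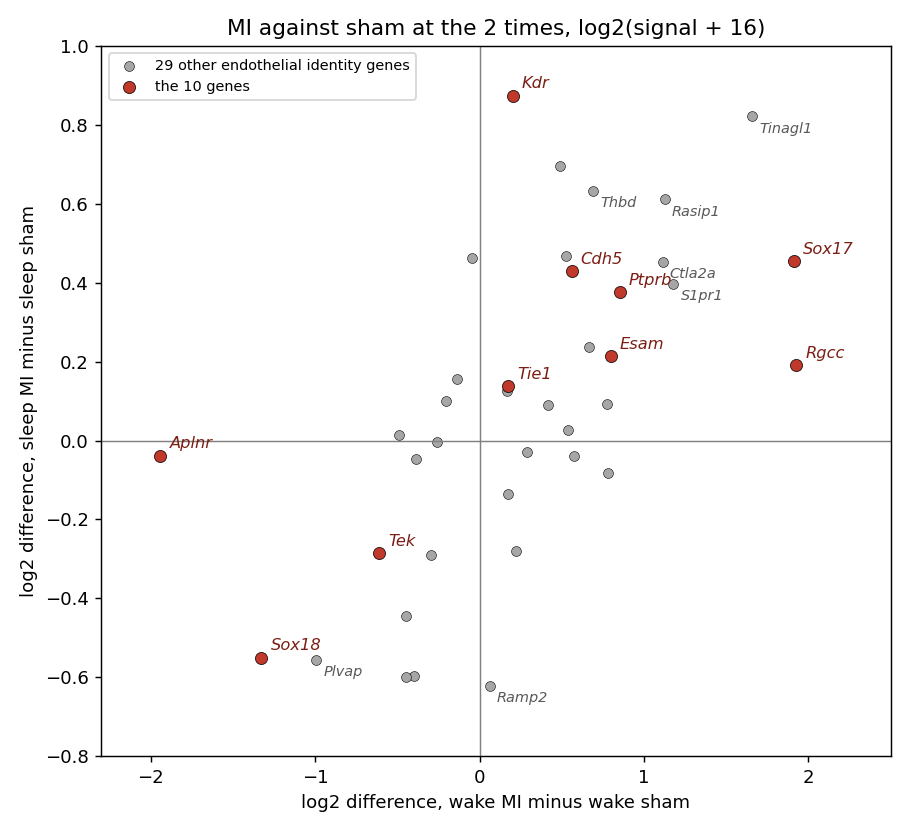
Log2 difference between MI and sham in wake hearts (horizontal) and in sleep hearts (vertical), from separate arrays, for the 10 genes (red) and 29 other endothelial identity genes (grey). All 10 genes share their sign with all 12 arrays in the fit at the 2 times, with Sox17 and Rgcc far to the right and Sox18 and Aplnr far to the left.

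The median of those 29 genes on each array stood at log2 8.12 ± 0.16 in wake sham and 8.49 ± 0.26 in wake MI hearts, and at 8.39 ± 0.19 after sham surgery and 8.42 ± 0.09 after MI in sleep hearts (SD, n = 3 each). Centring each array on it shifts every gene's difference by the same amount and leaves the distances between members as they were. On that scale Sox17 (1.54), Rgcc (1.55) and Ptprb (0.47) passed upward, and Sox18 (-1.71), Aplnr (-2.32) and Tek (-0.99) downward in wake hearts. Esam (0.42) and Cdh5 (0.18) no longer passed. Tie1 (-0.20) and Kdr (-0.18), which had not passed before, did not pass here and changed sign with the shift.

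Of 21 tested endothelial transcription factors other than the members, 2 rose, 5 fell and 14 did not pass over both times (median -0.21). Over all genes 8.57% rose and 13.6% fell by the same criterion, and the median was -0.06. Ets2, an ETS factor also induced by growth signals, rose (log2 0.77, SE 0.11), as did Klf4, a flow-responsive factor (0.54, SE 0.16), whose call ended without any of 6 single arrays. Tcf15, a factor of capillary endothelium in heart and muscle (-0.83, SE 0.13), Meox2, active in the same vessels (-0.56, SE 0.10), and Nr2f2, a factor of venous and atrial identity (-0.57, SE 0.11), fell. Fli1 (log2 -0.08, adjusted p = 0.736) and Tal1 (-0.12, adjusted p = 0.611) did not pass, and Erg had signals below the filter.

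Of the receptors' own ligands that were tested, only Angpt2 passed over both times. In the wider list of 14 ligands and co-receptors tested, 3 rose, 1 fell and 10 did not pass over both times (median 0.17). Over all genes 22.2% were called (8.57% higher and 13.6% lower), and the median was -0.06. Pgf, a ligand of Flt1, rose from 53.6 ± 3.29 to 300.2 ± 176 in wake and from 113 ± 32.7 to 266 ± 93.1 in sleep hearts (SD, n = 3 each; log2 1.58, SE 0.22, adjusted p = 0.000368, limma). Bmp4 (0.96, SE 0.19) and Angpt2, the context-dependent antagonist of Tek (0.69, SE 0.16), rose, and Vegfd fell (-0.49, SE 0.14), the last call ending without wake sham replicate 1. Bmp4 passed in wake hearts (1.73) and not in sleep hearts, and its call over both times ended with the beta-actin covariate. It was also called lower in wake than in sleep sham hearts (-1.19), a call that ended under 11 of 18 alternatives. Angpt2 and Vegfd had group means between 9.27 and 37.0. Each passed the filter on low signals only through the groups in which it was higher, so its call had to favour that direction and carries no weight in the count. Vegfa, the ligand of Kdr, rose in sleep hearts (log2 0.93, SE 0.19, adjusted p = 0.0206), from 174 ± 34.7 to 343 ± 22.4 (SD, n = 3 each), and not in wake hearts (-0.22, SE 0.19, adjusted p = 0.470). The difference of these effects did not pass (-1.15, SE 0.27, adjusted p = 0.167). Sleep sham was the low group for Vegfa, as it was for Kdr. The sleep call of Vegfa ended without sleep MI replicate 1 or 3 or sleep sham replicate 3. Apln, the ligand of Aplnr, stood at 0.29 (adjusted p = 0.0846), Vegfb at -0.26 (adjusted p = 0.113) and Vegfc at -0.26 (adjusted p = 0.183). Angpt1 had signals below the filter.

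Of 18 tested partners of Cdh5 and Esam at junctions, 15 did not pass and 3 rose, where 22.2% of all genes were called, and the median was -0.05 against -0.06 over all genes. Those that rose were Vcl, which ties junctions to actin (log2 0.45, SE 0.08), the tight junction gene Cldn5 (0.50, SE 0.14) and Ctnna1 (0.17), whose call ended under 15 of 23 alternatives. Cldn5 is also counted as higher among the endothelial identity genes. The call of Vcl ended under 1 of 23 alternatives, the centring, and that of Cldn5 under 2 of 23, the centring and the beta-actin covariate. Vcl is also abundant in heart muscle cells. Of 17 Notch and arterial or venous genes, 1 rose, Notch4 (0.37, SE 0.12), 1 fell, Nr2f2, and 15 did not pass. Nr2f2 is the same gene that is counted as lower among the transcription factors. The call of Notch4 over both times ended under 11 of 23 alternatives, while its call in wake hearts (0.77) ended under 2 of 18, the centring and the beta-actin covariate.

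Counts for markers of other cells follow, over both times, where 22.2% of all genes tested were called (8.57% higher and 13.6% lower). Endocardial markers, of the cells lining the heart chambers, gave 0 higher and 3 lower of 5 over both times (median -0.52), namely Npr3 at -1.16 (SE 0.20) and Plvap and Vwf, which are also counted as lower among the endothelial identity genes. Their summed signal over 6 genes ran from 1428 to 2192 in wake sham, 909 to 1429 in wake MI, 1500 to 1629 in sleep sham and 1001 to 1269 in sleep MI hearts. Summed atrial markers ran from 1829 to 14900, 1085 to 1504, 1780 to 4873 and 1905 to 3026 in the same order, highest in wake sham replicate 3. The atrial genes Myl7 and Sln read at most 3.07 on each wake MI array. Neutrophil markers gave 8 higher of 9 (median 1.42), with Il1r2 at 1.73, Hdc at 1.42 and S100a8 at 1.58. Hdc passed the filter only through the MI groups. Fibroblast markers gave 5 lower of 14 (Fbln1 -0.63, Cdh11 -1.28, Tcf21 -0.39), smooth muscle and pericyte markers 2 lower of 13 (Kcnj8 -0.47, and Higd1b -0.33, whose call ended under 9 of 23 alternatives), macrophage markers 1 higher (Cd14 0.997) and 1 lower (Lyz2 -0.55) of 12, and atrial markers 1 lower of 6. That atrial gene was Nr2f2, which is also counted as lower among the transcription factors and the Notch and arterial or venous genes. Cardiomyocyte markers gave 3 higher of 18 (Tcap 0.20, Actn2 0.22, Ttn 0.22), calls that ended under 10, 10 and 12 of 23 alternatives, and lymphatic (5 tested) and platelet and red cell markers (4 tested) gave none over both times. Ppbp, a platelet gene, was higher in wake MI than in wake sham hearts (log2 1.40, adjusted p = 0.0301), a call that ended under 6 of 18 alternatives. Taken by time, fibroblast markers gave 6 lower of 14 in wake hearts (median -0.60) and 0 in sleep hearts (median 0.01). Atrial markers gave 4 lower of 6 in wake hearts (median -2.16) and 0 in sleep hearts (median 0.55). Neutrophil markers gave 7 higher of 9 in wake and 2 in sleep hearts. Of all genes 10.6% were lower and 7.8% higher in wake hearts, and 0.986% and 1.69% in sleep hearts. The part of these cells in the differences of the 10 genes was not tested.

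A measure of RNA quality moved with the groups. Arrays carry control probe sets at both ends of beta-actin, and their 3'/5' signal ratio is higher in degraded RNA. It was 1.77 to 1.81 in wake sham, 2.17 to 3.31 in wake MI, 1.94 to 2.49 in sleep sham and 2.09 to 2.92 in sleep MI hearts. The wake groups did not overlap, and the highest ratio was that of wake MI replicate 3, the array that also stood apart in Tek and Tie1. With the ratio as a covariate, Sox17 (1.61), Rgcc (2.09) and Ptprb (0.65) still passed in wake hearts, while Sox18 (-0.90), Aplnr (-2.53), Esam (0.60) and Cdh5 (0.42) did not. Over both times Sox17 (0.998), Rgcc (1.16) and Ptprb (0.49) passed, Sox18 (-0.67), Esam (0.38), Cdh5 (0.41) and Kdr (0.41) did not, and Tek did (-0.77). The same covariate left 3.27% of all genes called in wake hearts, where 18.4% were called without it. With the same covariate the other endothelial identity genes went from 12 higher and 4 lower over both times to 4 and 2, and the neutrophil markers from 8 higher to 6, while the macrophage markers stayed at 1 higher and 1 lower.

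Within groups some of the 10 genes varied together and others in opposite directions. After each group's mean was taken away, Sox17 and Esam correlated at 0.93 over the 12 arrays, Ptprb and Tie1 at 0.92, Ptprb and Tek at 0.87 and Tie1 and Tek at 0.84. The median of all 45 pairs was 0.28, and 28 pairs were above 0. Sox18 ran against several of them, at -0.71 with Tek and -0.65 with Tie1, and -0.39 with Sox17. Kdr ran against Sox17 (-0.67), Rgcc (-0.54) and Esam (-0.50) and with Aplnr (0.63). These correlations are descriptions, and wake MI replicate 3 and the spread of sleep sham hearts enter many of them.

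Over the 12 arrays, groups included, the genes most like Sox17 by Pearson's r of log2(signal + 16) were Esam (0.98), Il4ra (0.96), Carhsp1 (0.96), Sgk1 (0.96) and S1pr1 (0.96). Esam is a member itself, S1pr1 is an endothelial receptor for sphingosine 1-phosphate, Il4ra is a receptor chain for interleukin-4 and Sgk1 a kinase induced by glucocorticoids. Most like Sox18 were Cox8a (0.95), Anapc16 (0.94), Terf2ip (0.93), Atg5 (0.93) and 2210016F16Rik (0.93), none of them in the endothelial lists. All share the arrays and their scaling, and r is given without a p-value.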

How the data were processed

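The authors deposited 1 intensity per probe set and array on a linear scale, made by MAS5 according to the submitters' processing notes, which state no version or settings. Each array's mean after trimming 2% at each end was about 150.1, so the deposited values had been scaled, and no further scaling was applied. Median signals were 32.7 to 34.7. Arrays of 1 group correlated across genes at 0.974 to 0.988, and arrays of different groups at 0.948 to 0.989. Precision is limited by having 3 arrays per group. No batch is given in the labels, so none was tested.

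From the 22690 probe sets, 64 controls were removed. The brightest single-symbol probe set on average stood for each gene, and 8111 genes with a mean of at least 17.3 (the 40th percentile) were tested as log2(signal + 16) with limma 3.58.1 in R 4.3.3, with 1 mean per group, an intensity trend and Benjamini-Hochberg adjustment within each of 6 comparisons. The fit was tested on simulated data. Alternatives varied the pseudocount, filter, scaling, probe-set rule, trend, covariate, replicate block and the arrays included. With 3 arrays a group, 0.1 is the smallest two-sided p of an exact permutation test. Figures used matplotlib 3.10.9.

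The members and gene lists were chosen with earlier results of these data known. Named list genes are up to 3 called genes in each direction with the smallest adjusted p, and a panel of 10 ligands and factors. Pecam1, Flt1, Eng, Emcn, S1pr1, Nos3, Robo4 and Thbd were named outside this rule, after their values were seen.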

Additional observations from a re-analysis of the deposited data

How the results depend on the processing

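Of 130 recounts of the called members under the alternatives, 117 stayed within 1.5 times the main count. Adjusted for the beta-actin ratio, 4 members were called over both times, 3 in wake hearts and 0 between the sham groups, against 7, 7 and 1. Centred on other endothelial genes, 4 were called between the sham groups and 1 in the difference of effects. Between the sham groups 0 were called with the compared groups alone and 0 with an adjusted p below 0.01. With single arrays left out the counts ran from 6 to 8 over both times and in wake hearts, 0 to 3 between the sham groups, 0 to 1 in the difference of effects, and stayed at 0 in sleep hearts and between the MI groups. Of 1240 recomputed member values 1214 moved by less than 1 SD between replicates, and 0 of the called ones changed sign. Some that were not called did change sign, such as Tie1 and Kdr in wake hearts and Aplnr, Rgcc and Esam in sleep hearts. Among list genes, for which the same alternatives were added after seeing the data, centring on endothelial genes turned Ctnna1 over both times to -0.035 and Ttn in wake hearts to -0.067.

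The replicate number as a block changed no count of called members by over 1.5 times (8 over both times, 7 in wake hearts, 0 in sleep hearts). The deviations of same-numbered arrays from their group means correlated above 0.1 in 5 of 18 pairs (-0.17 to 0.25). Differently numbered pairs were not compared, so whether same-numbered arrays share more than a number cannot be told. MAS5 signals near the filter, as in Angpt2, Vegfd and the dimmer probe sets of Aplnr and Cdh5, carry little information on small differences.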
